A study of Mus musculus with 31 samples.

Results

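Igf1, the receptors that bind insulin-like growth factors and the proteins that carry them were examined in the mammary glands and tumors of K5ΔNβcat mice. The members were taken as 10 genes, Igf1, Igf1r, Igf2r, Insr and Igfbp2 to Igfbp7, and every probe set that the array annotation names with only one of these symbols was used, which gave 10 of 18193 genes and 29 of the 45037 probe sets of the array. A further probe set that carries the symbol Igf2r together with Airn was left out. K5ΔNβcat mice express a stabilised, N-terminally truncated β-catenin from the keratin 5 promoter, active in basal epithelial cells, in an otherwise intact animal. The tissue groups were 11 K5ΔNβcat tumors, 5 small and 5 large K5ΔNβcat hyperplasias, and 4 samples of mammary tissue from control mice. A separate set of arrays held sorted basal mammary cells from 3 pools of control mice and 3 pools of K5creMycL/L mice, in which Cre under the keratin 5 promoter removes Myc from basal cells. These sorted cells do not carry the β-catenin transgene according to the labels. All animals are labelled C57BL6, while the methods of the study describe a mixed 129SV/C57BL6 background, and no source used here gives the ages behind the arrays. The labels do not say whether the tissue samples of a group came from separate animals, so p-values cover only sample-to-sample spread, which may be technical.

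Igf1 is a secreted growth factor made in the liver and, locally, by stromal cells under the influence of growth hormone. In the mammary gland it acts on the epithelium through the tyrosine kinase receptor Igf1r, and insulin acts through the related Insr. Igf2r binds Igf2 without a kinase of its own and carries it to lysosomes. The binding proteins hold insulin-like growth factors in the extracellular space, where they can limit or prolong access to the receptor, and proteases release the growth factor from them. Igfbp7 is a related protein with low affinity for the growth factors.

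Values are MAS5 signals, a linear brightness that is scaled to the same trimmed mean of 100 on every array. Differences are given on the scale of log2(signal + 16) from limma, with the standard error (SE), and a gene is represented by its brightest probe set unless another is named. The offset makes the difference of a dim probe set smaller than its true change. Probe sets entered a test where the higher group median reached 30, the background cut-off of the study, and "called" means an adjusted p under 0.05 over all probe sets tested. Each of the 10 genes had a tested probe set in every comparison, and 25 of the 29 probe sets were tested.

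Among the tumors, arrays 1 to 3 stood apart. Their median signals lay between 29.1 and 29.6, within the 27.1 to 32.9 of the 14 other tissue arrays, whereas tumors 4 to 11 had medians of 23.9 to 26.7. The labels name no batch for this. Results on tumors are therefore also given for the 2 sets separately where they differ. Of the 3 Ctnnb1 probe sets, 1430533_a_at read 423 to 704 in control tissue, 729 to 1478 in the hyperplasias and 2396 to 3177 in the tumors, while the brightest, 1420811_a_at, read 2391 to 3054 in control tissue and 3370 to 4369 in tumors. Whether a probe set tells the transgene from the mouse gene was not tested. Cell type markers moved strongly along the same groups. Basal keratin Krt5 rose from 309 ± 56.3 (SD, n = 4) in control tissue to 2762 ± 541 (SD, n = 11) in tumors, and all 11 basal markers tested were called higher there. All 11 adipocyte markers were called lower, with a summed level of 1534 to 7330 in tumors against 63243 to 70598 in control tissue, and Lep fell to a mean of 7.00, below the cut-off on every tumor array. All 12 endothelial markers were called lower, with sums of 1261 to 2200 against 3493 to 3645. Of 12 macrophage markers, 7 were called higher and 1 lower (sums 7727 to 13522 against 6446 to 9519), and of 13 fibroblast markers, 5 higher and 4 lower (17231 to 34540 against 37695 to 44401). In bulk tissue, fewer cells of a type and less RNA per cell cannot be told apart, and the part of these markers in the results below was not tested.

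Between tumors and control tissue, 8 of the 10 genes were called, 2 higher and 6 lower. Of all probe sets tested, 69.1% were called in this comparison (33.2% higher, 35.9% lower), so that the share among the members was near the background. The median difference over the 10 genes was -0.82, against -0.03 over all probe sets tested. Igfbp2 and Igfbp3 rose, Igf1, Igf1r, Insr, Igfbp4, Igfbp5 and Igfbp6 fell, and Igf2r and Igfbp7 were not called. With tumors 4 to 11 as the only tumors, 8 genes were called, and with tumors 1 to 3 as the only tumors 10 were. Over all probe sets tested, these fits called 16511 and 14130, against 16652 with all 11 tumors.

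**Figure D1:**
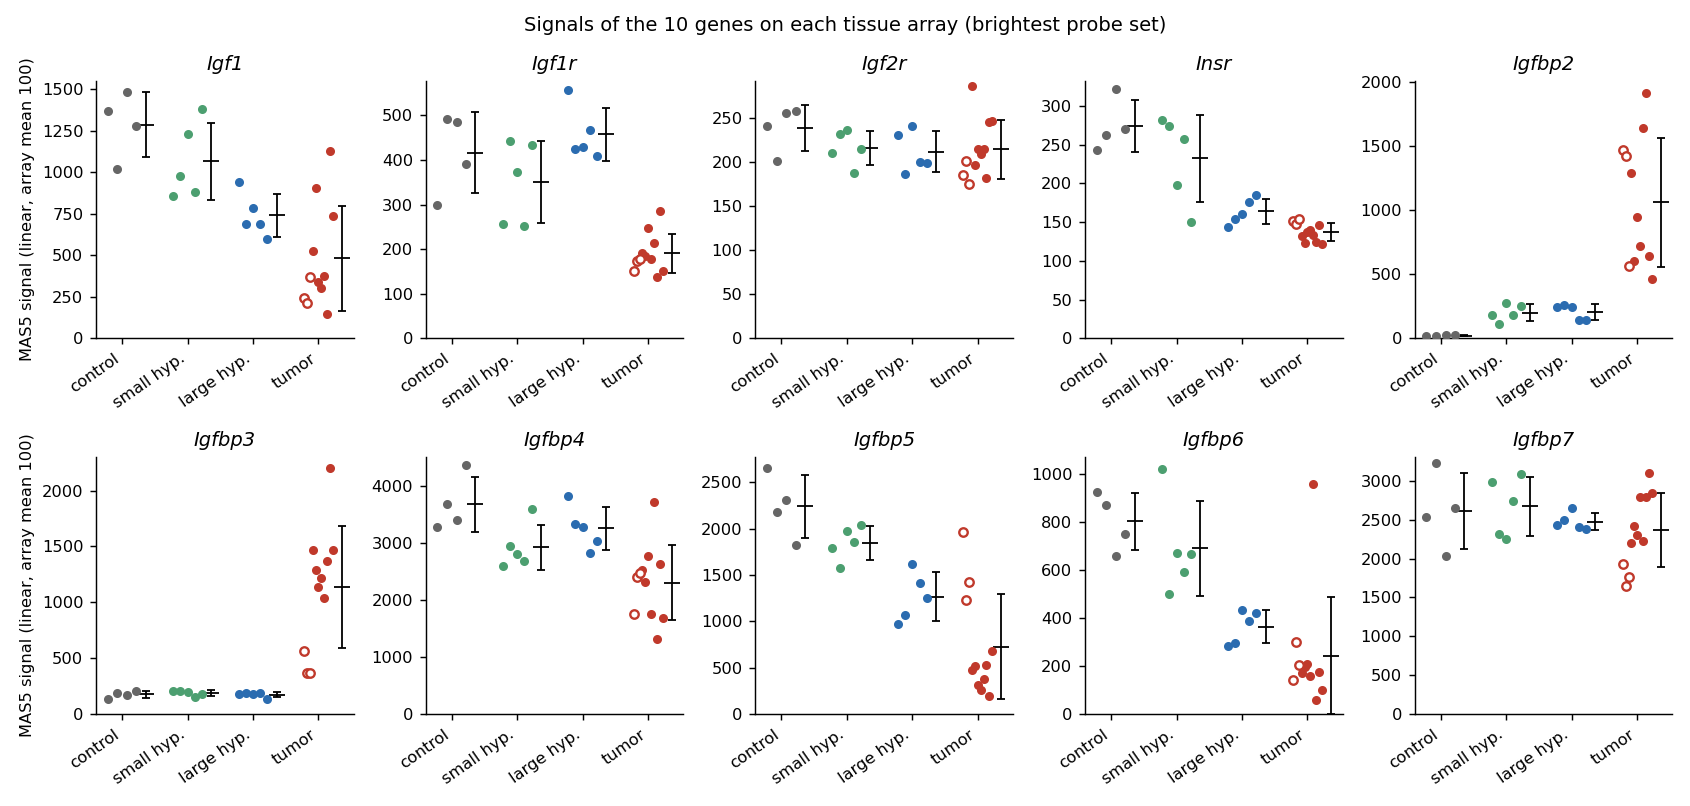
Signals of the 10 genes on each of the 25 tissue arrays (vertical axis, linear MAS5 signal), by group. Points are arrays, open circles are tumors 1 to 3, and the bar beside each group gives its mean ± SD; Igfbp2 climbs from between 16.5 and 21.99 in control tissue to between 464 and 1912 in tumors, while Igf1 falls from between 1019 and 1482 to between 144 and 1131.

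Igf1, the ligand, was measured by 4 probe sets. The brightest, 1437401_at, read 1367, 1019, 1482 and 1278 in control tissue, 856, 979, 1231, 879.8 and 1382 in small hyperplasias and 944, 689.7, 783, 686 and 599.7 in large hyperplasias. In the 11 tumors it ranged from 144 to 1131 with a median of 369. Large hyperplasias all lay below control tissue, small hyperplasias overlapped with it, and a single tumor, number 10 at 1131, reached into the range of control tissue. The fall in tumors was -1.62 ± 0.34 (SE; adjusted p = 0.00017) against control tissue, with -1.41 for tumors 4 to 11 only and -2.19 for tumors 1 to 3 only. It was -1.34 ± 0.31 (adjusted p = 0.00089) against small hyperplasias and -0.84 ± 0.31 (adjusted p = 0.028) against large hyperplasias. The last call was lost without tumors 1 to 3 (-0.62, adjusted p = 0.099) and when large hyperplasia 1 or 3 was left out. Large hyperplasias differed from control tissue by -0.79 ± 0.39 (adjusted p = 0.1), a difference called, among the alternatives tried, only with the 9 arrays compared fitted alone (adjusted p = 0.00046), with the unequal-variance test of the methods (adjusted p = 0.011) or with the replicate number as a block (adjusted p = 0.012). In order of level the groups ran control tissue, small hyperplasias, large hyperplasias, tumors, and neither pair of neighbours among the first 3 was called (adjusted p = 0.62 and 0.41).

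The 4 Igf1 probe sets were all called lower in tumors (-1.50 to -2.23). They differed in whether the hyperplasias were called. Probe set 1452014_a_at was called in small hyperplasias (-0.78 ± 0.29, adjusted p = 0.039) and in large hyperplasias (-0.91 ± 0.29, adjusted p = 0.011). The other 3 were not called in either, and a difference between probe sets was not tested. On 1452014_a_at control tissue read 669 to 831 and the 10 hyperplasias 329 to 533, with no overlap. Nor was there overlap on 1434413_at, with 1236 to 1457 in control tissue and 603 to 1087 in the hyperplasias. Igf1 lies on chromosome 10 at 87858265 to 87937047 (GRCm38.p6). The 250 bases upstream of the start site listed for it in RefSeq, at chr10:87860861-87861110 on the plus strand, hold 2 matches to a Tcf core (CTTTGAA with A or T allowed at each of the last 2 positions, either strand), the letters read by the partners of β-catenin on DNA. They are shown here in capitals because β-catenin is the oncogene of this model and Igf1 is the only one of the 9 genes with an entry that holds such a match. This window lies inside the Igf1 span given above, so the bases before that span were not searched. The windows of Igfbp3 and Igfbp4 also lie inside the spans of their genes.

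Igf1 upstream: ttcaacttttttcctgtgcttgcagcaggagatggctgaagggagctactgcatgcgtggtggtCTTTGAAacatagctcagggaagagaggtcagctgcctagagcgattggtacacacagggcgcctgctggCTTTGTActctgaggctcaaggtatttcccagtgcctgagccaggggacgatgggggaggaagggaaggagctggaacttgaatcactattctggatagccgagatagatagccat

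Such a match was present upstream of 14.8% of all 32851 start sites searched. It is a description of letters and not of a bound site. The other motifs searched on both strands were the Myc E-box CACGTG (6.02% of start sites), the GC box GGGCGG (32.7%) and TATAAA (12.4%). Upstream sequence entries were found for 9 of the 10 genes, all but Insr, and gave 10 windows.

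The receptors took different courses. Igf1r, the signalling receptor of the growth factor, read 298, 492, 486 and 389.8 in control tissue, 257, 442, 373, 253 and 433 in small hyperplasias and 556, 425, 429.9, 467 and 409.8 in large hyperplasias on probe set 1452982_at. Tumors ranged from 137 to 285 with a median of 179. Every tumor lay below every control and every large hyperplasia, and only 2 of the small hyperplasias came within the tumor range. The difference of tumors was -1.07 ± 0.16 (adjusted p = 3.1e-06) from control tissue and -1.22 ± 0.15 (adjusted p = 5e-07) from large hyperplasias. The other 3 tested Igf1r probe sets were dimmer and did not show the fall from control tissue (-0.27 to 0.14, none called), although all 3 were called lower against large hyperplasias (-0.31 to -0.59). On 1426565_at, large hyperplasias were higher than control tissue by 0.46 ± 0.16 (adjusted p = 0.026) and than small hyperplasias by 0.65 ± 0.15 (adjusted p = 0.011). It also read higher in tumors than in small hyperplasias (0.33 ± 0.13, adjusted p = 0.036), where the brightest probe set was lower (-0.82 ± 0.15, adjusted p = 7e-05). On the brightest probe set the rise of large over small hyperplasias, 0.40 ± 0.18, was not called (adjusted p = 0.16).

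Insr, the insulin receptor, was measured above the cut-off in tissue by 1434446_at alone. Control tissue read 244, 262, 322 and 271, small hyperplasias 282, 274, 198, 258 and 150.002, large hyperplasias 144, 155, 159.9, 176 and 185, and tumors 122 to 155 with a median of 138. Among the tumors it had the smallest spread of the 10 genes, with an SD of 0.11 on the log2 scale against a median of 0.21 over the 21424 probe sets with a tumor median of at least 30. Insr fell by 0.69 ± 0.13 (adjusted p = 0.00013) in large hyperplasias and by 0.92 ± 0.11 (adjusted p = 1.1e-07) in tumors, and neither group overlapped with control tissue. Against large hyperplasias, tumors differed by -0.23 (adjusted p = 0.07), which was called with tumors 4 to 11 only (-0.28, adjusted p = 0.046) and not with tumors 1 to 3 only (-0.10, adjusted p = 0.65). Insr was the only member called between large and small hyperplasias (-0.44 ± 0.12, adjusted p = 0.026; 9.63% of probe sets were called there, 5.01% higher and 4.62% lower, and 9.4% had no overlap, as had Igfbp6 alone of the 10). That call was lost when any of small hyperplasias 1, 2 and 4 or large hyperplasias 1 to 3 was left out (adjusted p up to 0.092), and in the fit of those 10 arrays alone (adjusted p = 0.081), where Igf1, Igfbp5 and Igfbp6 were called instead.

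Igf2r, the clearance receptor of Igf2, stayed within 176 to 287 over all 25 arrays. Its tumor mean was 215 ± 33.3 (SD, n = 11) against 239 ± 26.1 (SD, n = 4) in control tissue. The difference of -0.15 ± 0.10 was not called (adjusted p = 0.18; 95% interval -0.37 to 0.06). It was called with tumors 1 to 3 only (-0.32, adjusted p = 0.024) and not with tumors 4 to 11 only (-0.09, adjusted p = 0.45), and the dimmer probe set 1424111_at gave -0.26 ± 0.10 (adjusted p = 0.028).

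Igfbp2 rose the most of the 10 genes. Control tissue read 18.1, 16.5, 21.99 and 21.85, below the cut-off of 30 on every array. Small hyperplasias read 179, 113, 272, 182 and 253, large hyperplasias 243, 257, 246, 141 and 138, and tumors 464 to 1912 with a median of 943. The 3 ranges, control tissue, hyperplasias and tumors, did not overlap. Set against the cut-off, since control tissue has only an upper bound, signals were at least 6.37-fold higher in small hyperplasias, 6.57-fold in large hyperplasias and 31.7-fold in tumors (adjusted p = 5.6e-06, 1.4e-06 and 4.9e-13). Small and large hyperplasias differed by 0.04 ± 0.33 (adjusted p = 0.95; 95% interval -0.63 to 0.71). Tumors exceeded large hyperplasias by 2.18 ± 0.28 (adjusted p = 6.7e-07), and the rise from control tissue was of like size in tumors 1 to 3 (4.92) and in tumors 4 to 11 (4.71).

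Igfbp2 was the only member called in small hyperplasias, where 31.2% of all probe sets tested were called (16.8% higher, 14.4% lower). In large hyperplasias it was joined by Insr and Igfbp6, both lower, so that 3 of 10 genes were called against 45.7% of all probe sets (25.6% higher, 20.1% lower). Without overlap to control tissue were 1 gene in small hyperplasias (background 22.1%), 5 in large hyperplasias (37.4%) and 4 in tumors (41.7%).

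**Figure D2:**
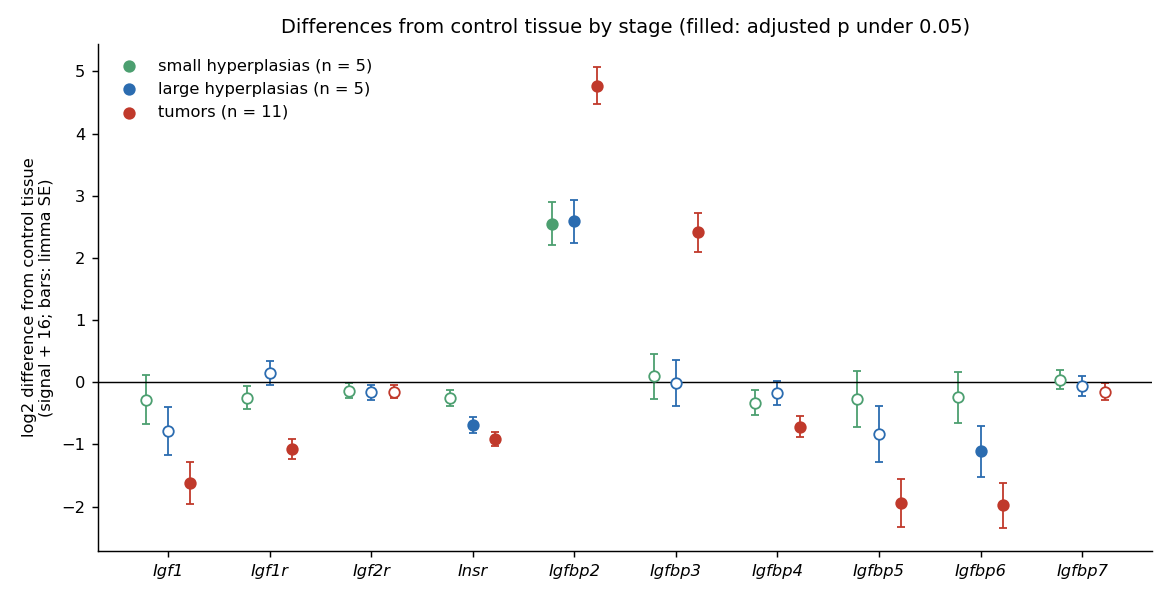
Difference from control tissue for each gene (vertical axis, log2 of signal + 16, bars ± SE from limma) in small hyperplasias, large hyperplasias and tumors; filled points are called. Igfbp2 is up by 2.55 and 2.59 in the hyperplasias and by 4.77 in tumors, and Igfbp3 is called in tumors only. On the brightest probe set, the one drawn, Igf1, Igfbp5 and Igfbp6 lie lower at each later stage.

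Igfbp2 and Igfbp5 are neighbours. On chromosome 1 of GRCm38.p6, Igfbp2 occupies 72824480 to 72852474 on the plus strand and Igfbp5 72858065 to 72874865 on the minus strand, with 5590 bases between their ends, and in tumors the first rose while the second fell. Their upstream stretches are shown to set the pair side by side, with GC boxes and the E-box in capitals. Igfbp2 is given for the first of its 2 start sites, at chr1:72824230-72824479, and Igfbp5 at chr1:72874866-72875115, each in the direction of its own strand.

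Igfbp2 upstream: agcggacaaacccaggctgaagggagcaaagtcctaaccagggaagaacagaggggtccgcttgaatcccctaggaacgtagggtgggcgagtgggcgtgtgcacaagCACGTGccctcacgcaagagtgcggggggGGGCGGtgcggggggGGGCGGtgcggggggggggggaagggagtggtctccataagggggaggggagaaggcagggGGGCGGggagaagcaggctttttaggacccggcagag
Igfbp5 upstream: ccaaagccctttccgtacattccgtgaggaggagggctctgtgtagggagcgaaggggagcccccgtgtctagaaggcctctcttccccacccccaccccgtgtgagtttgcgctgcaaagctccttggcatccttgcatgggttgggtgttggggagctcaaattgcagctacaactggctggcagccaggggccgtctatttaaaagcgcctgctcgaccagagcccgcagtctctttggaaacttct

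The Igfbp2 stretch holds 1 E-box, at positions -142 to -137 from the start, and 3 GC boxes. None of the 4 motifs was matched upstream of Igfbp5 or of Igfbp3, which says only that these letters are not in these windows. Igf2r was the other member with an E-box, and held 2.

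Igfbp3 and Igfbp5 changed in opposite directions. Igfbp3, the main carrier of the growth factors in blood, read 136, 190.5, 169 and 209 in control tissue, 207, 209, 198, 149 and 178 in small hyperplasias and 174, 190.4, 179, 189.5 and 133 in large hyperplasias. Tumors ranged from 362 to 2200 with a median of 1214, above every other tissue array. The rise was 2.41 ± 0.32 (adjusted p = 3.2e-07) against control tissue and 2.43 ± 0.30 (adjusted p = 3.5e-07) against large hyperplasias, and the second probe set gave 1.83 ± 0.27 against control tissue (adjusted p = 1.8e-06). Neither hyperplasia group was called against control tissue (0.09 ± 0.37 and -0.02 ± 0.37; adjusted p = 0.87 and 0.98).

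Igfbp5, known for its rise in the involuting mammary gland, took the reverse course. Probe set 1452114_s_at read 2651, 2174, 2309 and 1826 in control tissue, 1794, 1576, 1970.1, 1850.4 and 2041 in small hyperplasias and 970.5, 1069, 1621, 1417 and 1246 in large hyperplasias. Tumors ranged from 195 to 1959 with a median of 515. All large hyperplasias lay below control tissue, but the difference of -0.83 ± 0.45 was not called (adjusted p = 0.13) unless these arrays were fitted alone (adjusted p = 0.00059), the unequal-variance test was used (adjusted p = 0.011) or replicates were blocked (adjusted p = 0.043). Tumors fell by 1.94 ± 0.39 (adjusted p = 1e-04) from control tissue and by 1.11 ± 0.36 (adjusted p = 0.012) from large hyperplasias. On the dimmer 1422313_a_at, small hyperplasias read 160 to 402 and large ones 89.0 to 218. Both overlapped with the 185 to 366 of control tissue.

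Both genes split the tumors by the array set named above. Igfbp3 read 562, 362 and 370.4 in tumors 1 to 3 and 1040 to 2200 in tumors 4 to 11, and Igfbp5 read 1959, 1235 and 1423 in tumors 1 to 3 and 195 to 676 in tumors 4 to 11. The sets do not overlap for either gene. With control tissue as the base, Igfbp3 was higher by 1.21 in tumors 1 to 3 (adjusted p = 5.8e-06) and by 2.86 in tumors 4 to 11 (adjusted p = 1.7e-13). For Igfbp5 the differences were -0.55 (adjusted p = 0.011) and -2.47 (adjusted p = 1.9e-09). Against large hyperplasias, Igfbp5 in tumors 1 to 3 was not lower but stood 0.28 higher, which was not called (adjusted p = 0.21), so its fall from that stage rested on tumors 4 to 11 (-1.64, adjusted p = 1.1e-06). Against small hyperplasias the differences were -0.28 (adjusted p = 0.2) for tumors 1 to 3 and -2.20 (adjusted p = 1e-08) for tumors 4 to 11. On the dimmer Igfbp5 probe set 1422313_a_at, tumors 1 to 3 read 368, 201 and 195, against 185 to 366 in control tissue. Tumors 4 to 11 read 19.1 to 59.7 there, and this probe set was not tested by tumor set. Whether array set or tumor is the source of the split was not tested.

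**Figure D3:**
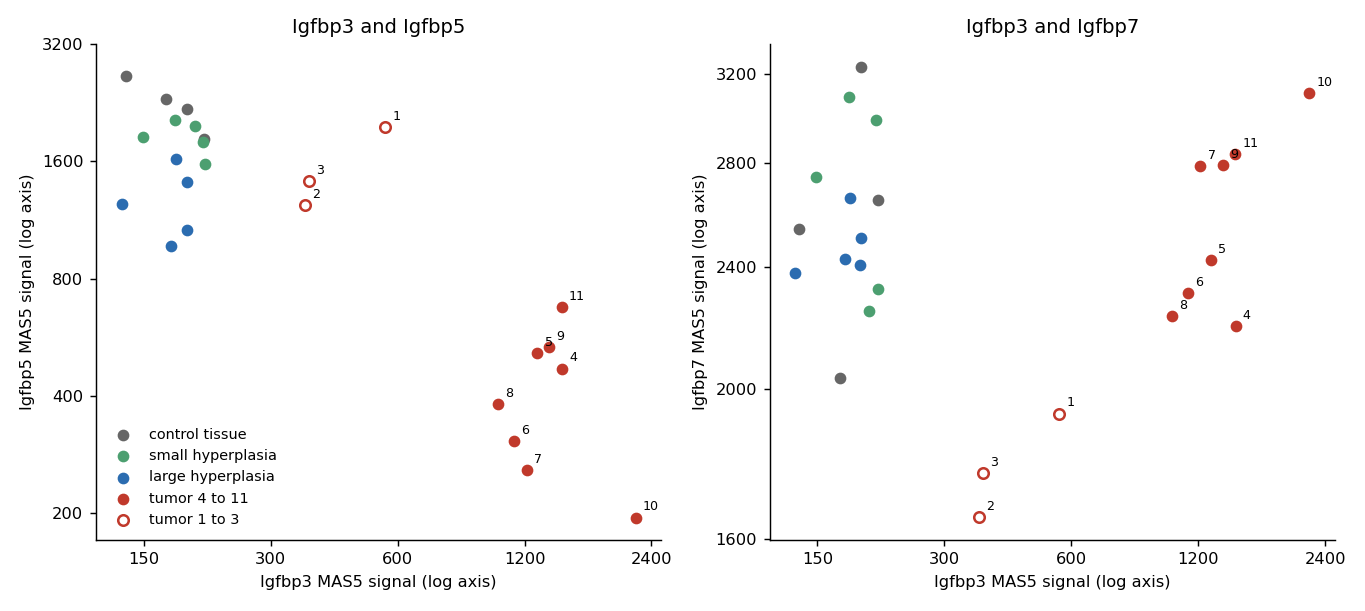
Igfbp3 signal (horizontal, log axis) against Igfbp5 (left) and Igfbp7 (right, log axes) on the 25 tissue arrays, with tumors numbered and tumors 1 to 3 as open circles. The Pearson correlation of Igfbp3 and Igfbp5 over the 11 tumors is -0.82, and -0.28 in tumors 4 to 11.

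Over the 11 tumors, log2 signals of Igfbp3 and Igfbp5 had a Pearson correlation of -0.82, and over tumors 4 to 11 alone (n = 8) it was -0.28. The correlation of Igfbp3 with Igfbp7 was 0.91 over 11 tumors and 0.67 over the 8. These arrays share the scaling, and the correlations are descriptions. Igfbp7 itself read 1930, 1653 and 1766 in tumors 1 to 3 and 2197 to 3108 in the others, again without overlap. Control tissue averaged 2614 ± 492 (SD, n = 4) and the tumors 2367 ± 474 (SD, n = 11), and the difference of -0.15 ± 0.14 was not called (adjusted p = 0.34; 95% interval -0.43 to 0.13). With tumors 1 to 3 alone the difference was -0.53 (adjusted p = 0.0027), and with tumors 4 to 11 alone it was -0.01 (adjusted p = 0.96). Its dimmer probe set 1423585_at went the other way, 0.46 ± 0.14 higher in tumors (adjusted p = 0.0054).

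Igfbp4, which binds the growth factors and is cut by the protease Pappa, was lower in tumors on all 6 of its probe sets (-0.72 to -1.61, all called). The brightest, 1437405_a_at, read 3282, 3684, 3400 and 4368 in control tissue and 1313 to 3730 in tumors, with a median of 2398. Only tumor 8, at 3730, lay within the control range. The small hyperplasias read 2603 to 3602 and the large 2820 to 3830, and neither was called against control tissue (-0.33 ± 0.20 and -0.17 ± 0.20; adjusted p = 0.21 and 0.5). Against small hyperplasias the tumors were lower by 0.39 (-0.39 ± 0.16, adjusted p = 0.043), a call lost in 8 of the 16 fits with 1 array left out and without tumors 1 to 3 (adjusted p = 0.068).

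Igfbp6, a carrier that prefers Igf2, read 927, 872, 659.96 and 752 in control tissue, 1021, 501, 669.7, 592 and 667 in small hyperplasias and 285, 295, 432, 387 and 423 in large hyperplasias. Of the 11 tumors, 10 read 59.9 to 301, and tumor 8 read 958, above every control. Large hyperplasias lay below both earlier groups without overlap. The difference from control tissue was -1.11 ± 0.41 (adjusted p = 0.03) in large hyperplasias and -1.98 ± 0.36 (adjusted p = 3e-05) in tumors. The first call was lost when large hyperplasia 1 or 2 or control 1 or 2 was left out (adjusted p up to 0.072). Tumors were lower than large hyperplasias by 0.87 (-0.87 ± 0.33, adjusted p = 0.031), and this was lost without large hyperplasia 3, 4 or 5 (adjusted p up to 0.072) and with these 16 arrays fitted alone (adjusted p = 0.066). Igf1 also lost its call in that fit (adjusted p = 0.063).

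**Figure D4:**
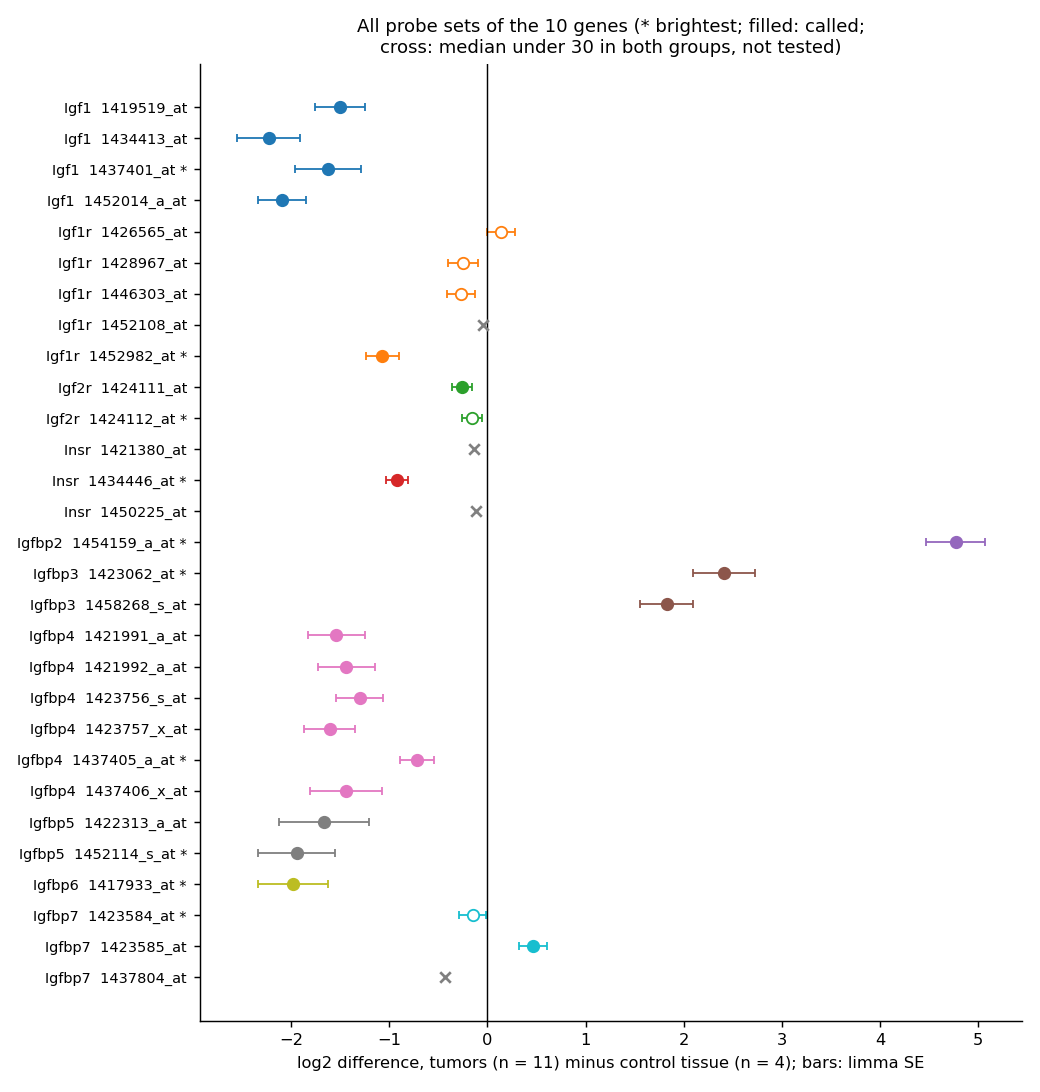
Log2 difference of tumors (n = 11) from control tissue (n = 4) for all 29 probe sets (horizontal axis, log2 of signal + 16, bars ± SE from limma); stars mark the brightest probe set of a gene, filled points are called and crosses were not tested. The 4 Igf1, 6 Igfbp4 and 2 Igfbp5 probe sets fall and both Igfbp3 probe sets rise, whereas 1 of 4 tested Igf1r probe sets falls and the 2 tested Igfbp7 probe sets point in opposite directions.

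The comparison of tumors with large hyperplasias called 7 of the 10 genes, 2 higher and 5 lower (background 53.9%, with 21% higher and 32.9% lower), and 3 did not overlap (background 23.2%). That with small hyperplasias called 8, 2 higher and 6 lower (background 54%, with 24.4% higher and 29.6% lower), and 2 did not overlap (background 22%). Among the tumors, 5 of the 10 genes were near the top of all probe sets in spread. The SD on the log2 scale was 1.03 for Igfbp5, 0.92 for Igfbp6, 0.88 for Igf1, 0.83 for Igfbp3 and 0.70 for Igfbp2, each larger than at 96.3 to 98.8 percent of the 21424 probe sets. Igfbp4 (0.42), Igfbp7 (0.30) and Igf1r (0.29) also lay above the median, larger than at 86.4, 73.2 and 72.5 percent. Only Igf2r (0.20) and Insr (0.11) lay under the median of all of them. Tumors high in Igf1 tended to be low in Igfbp2: the Pearson correlation was -0.71 over 11 tumors and -0.73 over tumors 4 to 11, but 0.63 for deviations from group means over the other 14 arrays. Igf1r and Igfbp4 had a correlation of 0.76 over the 11 tumors and 0.78 over the 8. That of Igfbp4 and Igfbp6, 0.88 over the 11 tumors, includes tumor 8, the highest for both, which also had the highest luminal marker sum (7554, others 1901 to 6591) and the lowest basal sum (10910, others 11252 to 18202).

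Among tumors 4 to 11, Igf1 was higher where stromal markers were higher. Its correlation with the summed marker level there was 0.83 for endothelial, 0.82 for macrophage and 0.72 for fibroblast markers (n = 8 each), and -0.24 for adipocyte markers. Over all 25 arrays the genes with the pattern most like Igf1 among 10699 brightly measured probe sets were Ccl11, Mmp2 and Pde8a (Pearson correlation 0.87, 0.87 and 0.86). By deviations from group means they were Mmp2, Bach1 and Csf1r (0.83, 0.81 and 0.81). For Igf1r they were Fyn, Mef2d and Ubr2 (0.93, 0.91 and 0.90) over all arrays and Snx18, Zfp36l1 and Rapgef5 (0.75, 0.74 and 0.73) within groups. Igfbp3 was most like Tor1aip2, Thbs2 and Pgk1 (all 0.95) and, within groups, Adam19, Serpinf1 and Thbs2 (0.86, 0.86 and 0.85). For Igfbp5 they were Rb1, Irs1 and Car3 (0.93, 0.91 and 0.91), and within groups Adcy9, Rb1 and Car3 (all 0.84). Igfbp7 was most like Serpinf1, Col3a1 and Col5a3 (0.81, 0.72 and 0.69), and within groups Serpinf1, Kdelr2 and Ckap4 (0.86, 0.84 and 0.82). Deviations from group means in tumors include the split of tumors 1 to 3 from the others.

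Genes around the family were read from lists. Igf2, the other ligand, read 96.3 ± 27.3 (SD, n = 4) in control tissue and 3543 ± 1056 (SD, n = 11) in tumors, without overlap. It was higher by 4.93 ± 0.39 in tumors (adjusted p = 4.7e-11) and by 1.61 ± 0.45 in small hyperplasias (adjusted p = 0.0086), and was not called in large hyperplasias (-0.04 ± 0.45, adjusted p = 0.95). Igfals, which stabilises the complex of growth factor and Igfbp3 in blood, fell by 1.57 ± 0.27 in tumors (adjusted p = 1.6e-05). The other 4 genes of that list on the array, Ins2, Igfbp1, Igfbpl1 and Insrr, were below the cut-off in both groups.

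Of the proteases and their inhibitors, 6 were tested in tumors, of which 2 were called higher and 2 lower (background 69.1% called in either direction). Pappa, which cleaves Igfbp4, read 16.3 ± 16.5 (SD, n = 4) in control tissue and 76.7 ± 45.1 (SD, n = 11) in tumors. It was called higher in tumors (adjusted p = 0.00014) and in the small and large hyperplasias (adjusted p = 0.00065 and 0.00048), but the control mean lies under the cut-off, so no size is given. The stanniocalcins, which inhibit it, parted: Stc1 rose by 2.96 ± 0.38 in tumors (adjusted p = 2.1e-07) and Stc2 fell by 2.27 ± 0.22 (adjusted p = 2.1e-09). Klk1 fell by 0.33 ± 0.13 (adjusted p = 0.027).

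Downstream of the receptors, 14 of 26 tested genes of insulin and growth factor signalling were called lower in tumors and 4 higher, with a list median of -0.43. Taken in either direction, this share was near the 69.1% of all probe sets called there. By direction, 35.9% of all probe sets were called lower and 33.2% higher, so lower calls were more frequent in the list and higher calls less. The largest differences were those of Grb14, an adaptor that inhibits the insulin receptor (-2.08), Foxo1, a transcription factor held in check by Akt (-2.06), Irs1, the docking protein of both receptors (-2.04), and Akt2, the insulin-responsive Akt kinase (-1.74). The adjusted p-values were 1.3e-10, 6.3e-11, 1.5e-08 and 1.6e-15. In large hyperplasias 10 were called lower and 4 higher (background 45.7% called, with 20.1% lower and 25.6% higher). In small hyperplasias 7 were called lower and 1 higher (background 31.2%, with 14.4% lower and 16.8% higher). The summed level of the list was 8376 to 8758 in control tissue, 6676 to 7829 in the hyperplasias and 5152 to 5776 in tumors. Adipocyte marker sums were also lower at each of these stages, with small hyperplasias at 30029.9 to 38647 and large ones at 22530.6 to 28826, between the control and tumor ranges given above.

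In the growth hormone axis, Ghr, the receptor that induces Igf1, fell from 5119 ± 451 (SD, n = 4) in control tissue to 326 ± 102 (SD, n = 11) in tumors (-3.96 ± 0.19, adjusted p = 2.1e-15). It was lower by 0.98 (-0.98 ± 0.21, adjusted p = 0.0012) in small and by 1.67 (-1.67 ± 0.21, adjusted p = 8e-07) in large hyperplasias. The feedback inhibitor Socs3 rose in all 3 groups (1.48, 1.42 and 2.99; adjusted p = 4.7e-06, 2.7e-06 and 8.7e-14). Stat5a and Stat5b, which carry the signal to the Igf1 gene, fell in tumors (-1.19 and -1.01; adjusted p = 4.6e-06 and 4.3e-09) and were not called in the hyperplasias. Of 7 tested genes of this list, 3 were called lower and 2 higher in tumors (background 35.9% lower, 33.2% higher). In large hyperplasias 1 was lower and 2 higher (20.1% and 25.6%), and in small ones 1 and 1 (14.4% and 16.8%). Not every gene counted here is named.

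The sorted basal cells were compared apart, since another labelling kit and far less RNA were used for them. Myc, the targeted gene, read 1479, 1677 and 1869 in the control pools and 141, 428 and 42.3 in the K5creMycL/L pools. Krt5 and Krt14 were bright in all 6 pools. Adipoq had a mean of 3.14 in control and 2.02 in K5creMycL/L pools. The summed adipocyte markers, however, read 1427 to 3745 in control and 1663 to 4834 in K5creMycL/L pools, and 5 of 11 were tested. Fibroblast marker sums were 5189 to 5729 in control and 5122 to 8007 in K5creMycL/L pools. The summed macrophage markers reached 111 to 699 in control and 506 to 629 in K5creMycL/L pools. None of the 10 genes was called by limma, as was none of the 19737 probe sets tested (0%). At an unadjusted p under 0.05 limma gave 1 of the 10 genes and 1259 probe sets, and the unequal-variance test 3 genes and 880 probe sets, of which 0 passed adjustment. With 3 pools a group the intervals are wide, and a gene that was not called may still differ.

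Igfbp4 was the gene with an unadjusted p under 0.05 in limma. It read 1053, 1130.0 and 1054 in control pools and 1997, 2064 and 2982 in K5creMycL/L pools, higher in 3 of 3 pools without overlap. The difference was 1.09 ± 0.23 (adjusted p = 0.44, and 0.12 with the pool number as a block; 95% interval 0.59 to 1.58). The other 5 Igfbp4 probe sets differed by 0.40 to 0.98 in the same direction, and none was called. Igfbp5, at 5863, 5319.6 and 5882 against 6345, 7361 and 6570.1 on 1422313_a_at, and Igfbp7, at 1424, 1273 and 1283 against 1695, 1599 and 1585, were also without overlap between the groups (0.25 ± 0.16 and 0.29 ± 0.21; adjusted p = 0.83 for both). Of all probe sets tested, 12.1% had no overlap.

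Igf1 was near or under the cut-off in sorted basal cells: its brightest probe set read 14.9 to 30.9 in control and 21.7 to 34.4 in K5creMycL/L pools, and the other 3 read 14.3 or less. Igf1r read 920.3, 599 and 731 against 785, 861 and 896 on 1428967_at (0.19 ± 0.26, adjusted p = 0.91). Igf2r on 1424111_at (-0.12 ± 0.32, 95% interval -0.81 to 0.56) and Insr on 1421380_at (-0.35 ± 0.36, 95% interval -1.12 to 0.43) were measured in all 6 pools and not called. Igfbp3 read 1859.8, 2562 and 2132 against 1971, 1069 and 2088 (-0.40 ± 0.27, adjusted p = 0.83). Igfbp2 read 117, 100.88 and 202 in control pools and 67.2, 67.4 and 930.2 in K5creMycL/L pools, so that its mean was set by 1 pool. Without that pool the difference went from 0.32 to -0.85 (adjusted p = 0.53). Igfbp6 ranged from 11.5 to 58.2 and from 20.4 to 103.

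**Figure D5:**
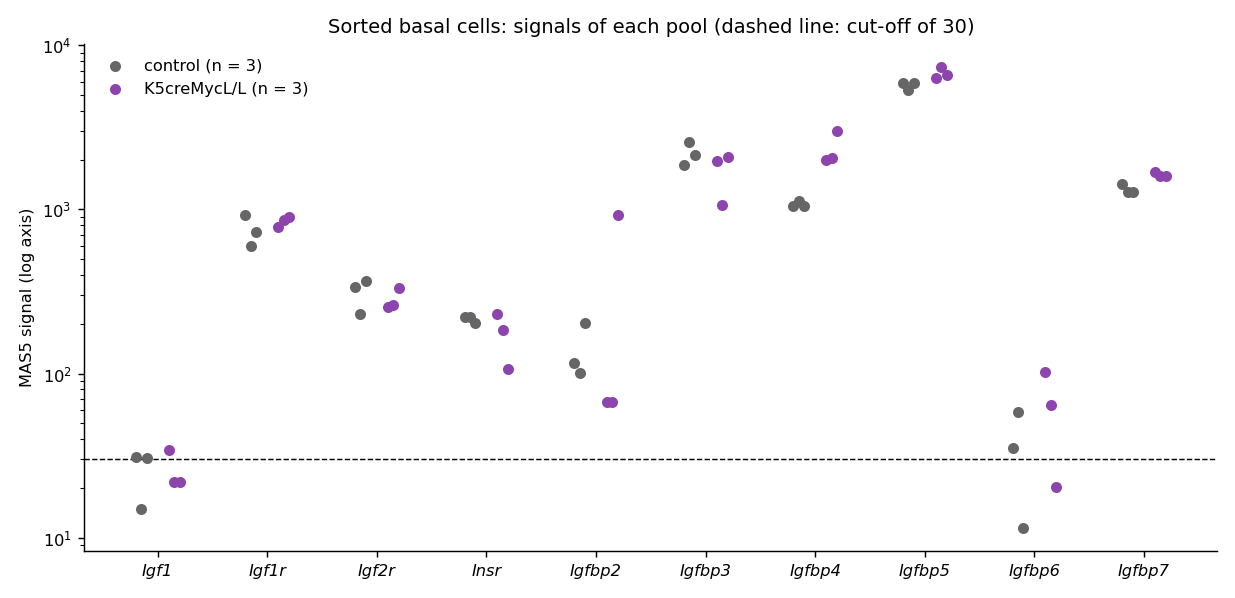
Signals of the 10 genes in sorted basal cells (vertical, log axis), 3 control pools and 3 K5creMycL/L pools, with the cut-off of 30 as a dashed line. Igfbp4 reads 1053 to 1130.0 in control and 1997 to 2982 in K5creMycL/L pools; Igf1 lies at the cut-off in both.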

How the data were processed

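Total RNA from 25 tissue samples and 6 pools of sorted basal mammary cells was hybridised to Affymetrix Mouse Genome arrays by the authors, after one-cycle labelling for tissue and NuGEN amplification for sorted cells. The deposited values are linear signal intensities that the authors computed with MAS5 in Affymetrix Expression Console, according to the submitters' processing notes, and no detection calls were used here. On every array the mean after trimming 2% at each end was 100. The number of arrays limits the precision. Of 45101 rows, 64 control probe sets were removed, and 34945 of the remaining 45037 carried 1 gene symbol in the platform annotation, 932 several and 9160 none.

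Probe sets with a higher group median of at least 30 were tested on log2(signal + 16) with limma 3.58.1 in R 4.3.3 (linear model, empirical Bayes with a trend, Benjamini-Hochberg adjustment over all probe sets tested). One model held the 25 tissue arrays, a second the 6 sorted arrays, and 7 comparisons were made. The scripts were tested on simulated data, where the fit of the 6 sorted arrays recovered far fewer of the changes than that of the tissue arrays. Gene positions and upstream sequences were from RefSeq (GRCm38.p6). The text names all 10 members, up to 4 called genes per pathway list and comparison by size, and the 3 genes most correlated with each of 5 members at a mean signal of at least 100. The members and lists were chosen with earlier results of these data known. In sorted cells, deviations of equally numbered pools had correlations of 0.28, 0.31 and 0.37, each the best match of its pool. The main fit of these cells nonetheless held no pool block, so its SE, intervals and p-values are unpaired. The pool number entered only as an alternative. No 2 arrays held equal values. Alternatives were no offset, a floor of 30, no filter or a filter on the mean, quantile normalization, a replicate block, fits of only the groups compared, the unequal-variance test and fold rule (over 2) of the methods, the mean of a gene's probe sets, each array left out, and, chosen after the data were seen, the 2 sets of tumors.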

Additional observations from a re-analysis of the deposited data

Results flagged for a closer look

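Each of the 30 sets of values formed by the 10 genes in control tissue, small hyperplasias and large hyperplasias was checked for an array far from the rest, and 1 stood out. In large hyperplasia 5, Igfbp3 read 132.97, while the other 4 large hyperplasias read 174 to 190.4. The gap was 0.71 of the whole range of the group. Chance alone marks about 1 in 20 such groups. Without that array the difference of large hyperplasias from control tissue moved from -0.02 to 0.07 (adjusted p = 0.91).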

How the results depend on the processing

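Direction and side of the threshold were compared for single genes, and only the sign for 4 within-group correlations. These were the same in 698 of 758 values from other settings and in 759 of 810 with 1 array left out. The within-group correlation of Igfbp4 and Igfbp6 kept its sign but was 0.71 by Pearson and 0.32 by Spearman. For the counts, tumors against control tissue gave 8 genes in every fit with 1 array left out, and small hyperplasias against control tissue gave 1. The fold rule of the methods ended the calls of Igfbp4 (-0.56) and Insr (-0.95) in tumors against control tissue, which left 6 genes, and of Igfbp4 (-0.23) and Insr (-0.90) against small hyperplasias, which also left 6. Against large hyperplasias it ended those of Igf1 (-0.90) and Igfbp4 (-0.45). Over all probe sets, the fold rule called 7437, 3941 and 3484 in these comparisons, where limma called 16652, 12705 and 12800. Large hyperplasias against control tissue gave 2 to 3 genes with 1 array left out (1 to 2 lower). The count rose from 3 to 5 (4 lower) with the replicate block, with only those arrays fitted and with the unequal-variance test, and 1 gene was lower under the fold rule and with the mean of the probe sets. Over all probe sets, these settings called 11094, 11147, 8456, 4204 and 10975, in that order, against 10977 in the main fit. Tumors against large hyperplasias gave 5 to 7 genes with 1 array left out (3 to 5 lower; 3 without large hyperplasia 3) and 3 lower by the fold rule. Tumors against small hyperplasias gave 7 to 8. Large against small hyperplasias gave 0 to 1 with 1 array left out, 3 (all lower) with only those arrays fitted, 0 by the unequal-variance test and by the fold rule, and 1 higher with 0 lower with the mean of the probe sets. Over all probe sets, 2755 were called there with only those arrays fitted and 418 by the unequal-variance test. The fold rule called 858 and the mean of the probe sets 2265, against 2259 in the main fit. Equally numbered arrays of the tissue groups had correlations of -0.20 to 0.14, with no pairing throughout a comparison. Some were each other's best match, such as large and small hyperplasias 2 (0.13) and 4 (0.098). Whether any of them share an animal was not tested. With the replicate block, Igfbp5 in tumors against large hyperplasias was -0.36 (adjusted p = 0.32) and Igfbp7 in tumors against control tissue -0.42 (adjusted p = 0.0088); in sorted cells the block changed no call. In the tissue model, replicate numbers 6 to 11 occur only among tumors, so the tumor differences of the block fit rest on tumors 1 to 5. Beyond this, the cause was not tested in any of these.

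Reversed signs were those of differences that were not called, except for Igfbp5 in tumors 1 to 3 against large hyperplasias (0.28). With the mean of the probe sets they were Igfbp7 in large hyperplasias against control tissue (0.029) and small hyperplasias (0.015), Igfbp3 in small hyperplasias (-0.035), Igf2r in tumors against large hyperplasias (-0.010) and, in sorted cells, Igf1 (-0.0071) and Igf2r (4.3e-05). With quantile normalization they were Igfbp7 in large hyperplasias (0.049) and Igf2r in tumors against small hyperplasias (0.00093), and with the replicate block Igf2r in tumors against large hyperplasias (-0.030). Under the fold rule they were Igf1r in large hyperplasias (-0.026) and, in sorted cells, Igf1 (-0.49) and Igfbp2 (-0.79). With tumors 4 to 11 only they were Igfbp7 against large hyperplasias (0.053) and Igf2r against small hyperplasias (0.043), and with tumors 1 to 3 only Igf2r against large hyperplasias (-0.16).

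With 1 array left out, values that crossed 0 were those of differences not called in any such fit. Igf2r ran from -0.032 to 0.055 in tumors against large hyperplasias, from -0.066 to 0.011 against small hyperplasias and from -0.075 to 0.011 in large against small hyperplasias. Igfbp2 ran from -0.13 to 0.16 in large against small hyperplasias. Against control tissue, Igfbp3 ran from -0.013 to 0.17 in small and from -0.12 to 0.067 in large hyperplasias, and Igfbp7 from -0.072 to 0.15 in small and from -0.17 to 0.048 in large hyperplasias. In sorted cells, Igf1 ran from -0.17 to 0.13, Igf2r from -0.32 to 0.0050 and Igfbp2 from -0.85 to 0.90. The offset of 16 and the cut-off of 30 limit what dim probe sets can show.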
